A study of Mus musculus with 6 samples.

Results

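Guidance genes are the semaphorins with their plexin and neuropilin receptors, the ephrins with their Eph receptors, and the netrins with Dcc and the Unc5 receptors. They were taken by gene symbol from probe sets that the platform annotation gives to a single gene, and the probe set with the highest mean over all arrays stood for each gene. This gave 61 of the 19938 genes on the arrays. Ephb2 was not analysed here. The cells were neural stem cells cultured from embryonic brains of the mouse strain C57BL/6 (wild type, labelled female, embryonic day 17.5), with 3 arrays for the subventricular zone of the third ventricle and 3 for that of the lateral ventricle. Growth conditions were common to all 6 cultures, namely low-attachment dishes and DMEM/Neurobasal medium to which N2 and B27 were added along with the mitogens FGF and EGF, both used at 20 ng/ml, so both groups were measured after growth in these mitogens and not in tissue. The number of passages is not given in the sources used here. The labels call the arrays of a group biological replicates without tying them to named animals, and a p-value here therefore reflects only how far these cultures differed from each other, which may be technical in part.

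Guidance molecules steer growing axons and migrating cells by attraction or repulsion. Most secreted class 3 semaphorins bind neuropilins, which pair with plexins to signal, while most membrane-bound semaphorins bind plexins directly. Ephrins are tethered to the cell surface, the A class by a lipid anchor and the B class by a transmembrane segment, so Eph signalling needs contact and runs in both directions. Netrin attracts through Dcc and repels through Unc5 receptors. In the germinal zones beside the ventricles several of these molecules are also known to act on the division, placement and migration of progenitors.

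Values are log2 RMA signals, and signals near the background are compressed. As a gauge of background, the 95th percentile of 1015 olfactory receptor genes was taken in each array, which lay between 5.03 and 5.15. Of the 61 guidance genes, 35 lay above the gauge in all 6 arrays, 15 at or below it in all 6, and 11 in between. Of the neural stem cell markers, 11 of 12 (Nes, Sox2, Vim, Fabp7, Pax6 and others) lay above the gauge in all 6 arrays, while Prom1 missed it in 1 array of the third ventricle. All 10 endothelial and pericyte markers lay at or below it in every array. One array, number 2 of the lateral ventricle, resembled the other group. Over all genes it correlated at 0.991 with each array of the third ventricle, and at 0.980 and 0.982 with lateral ventricle arrays 1 and 3. These correlations run across genes, which are not independent replicates. The same split showed in 15 cell cycle markers, whose median deviation from the gene means was 0.54 to 0.61 in the third ventricle arrays, and -1.41, 0.57 and -0.86 in lateral ventricle arrays 1, 2 and 3. Not every marker list split this way. For 10 oligodendrocyte progenitor markers the median deviation was -0.15 to -0.13 in the third ventricle arrays. In lateral ventricle arrays 1, 2 and 3 it was 0.36, 0.22 and 0.14, so array 2 lay with its own group there. Guidance gene results are therefore given with and without lateral ventricle array 2 wherever that changed a call. That array was singled out by its values, and without it the calls over all genes went from 46 to 1644. A call gained by leaving it out is therefore no separate support.

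One guidance gene passed the test between the regions. Nrp1, the neuropilin that binds class 3 semaphorins and also the growth factor VEGF-A, rose in the third ventricle cultures. Its log2 values were 6.73, 6.67 and 6.75 in the third ventricle arrays, against 6.05, 6.01 and 5.87 in the lateral ventricle arrays. All 3 arrays of the third ventricle lay above the 3 lateral ones, and lateral ventricle array 2 lay with its own group. The means were 6.72 ± 0.04 in the third and 5.98 ± 0.09 in lateral ventricle cultures (SD, n = 3 each). The difference was 0.74 (SE 0.09, 95% interval 0.53 to 0.95), or 1.67-fold, with an adjusted p of 0.0316 in limma over all genes. In bulk RNA, more cells with the transcript and more transcript per cell cannot be told apart. The endothelial and pericyte markers, Pecam1, Cdh5, Cldn5 and Kdr among them, had a summed linear signal of 188 to 198 in the third against 179 to 191 in lateral ventricle arrays. With all 10 at or below the gauge, these sums give no level of such cells, and their part in the Nrp1 value was not tested.

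Nrp2, the second neuropilin, which prefers other class 3 semaphorins and binds VEGF-C, was measured at 6.24, 5.98 and 5.82 in the third ventricle arrays, and at 5.70, 5.55 and 5.43 in the lateral ventricle arrays. These groups did not overlap either, but the difference of 0.46 (95% interval 0.15 to 0.76) did not pass (limma, adjusted p = 0.282). Both neuropilins were thus above the gauge in 6 of 6 arrays, and both had their 3 higher values in the third ventricle cultures.

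The Nrp1 call was lost in 7 of 14 alternatives. It was lost without array 1, 2 or 3 of the third ventricle (adjusted p = 0.160, 0.187 and 0.245 in limma), and likewise when lateral ventricle array 1 (0.0635) or 3 (0.0899) was left out. It was kept without lateral ventricle array 2 (0.00351), and lateral ventricle array 2 alone against the third ventricle gave a difference of 0.71 that did not pass (adjusted p = 0.0730). The remaining loss was in the fit with the replicate number as a block. The size hardly moved, from 0.69 to 0.78 over these alternatives. Groups that do not overlap fix the sign when an array is left out, so the sign is no separate support.

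**Figure D1:**
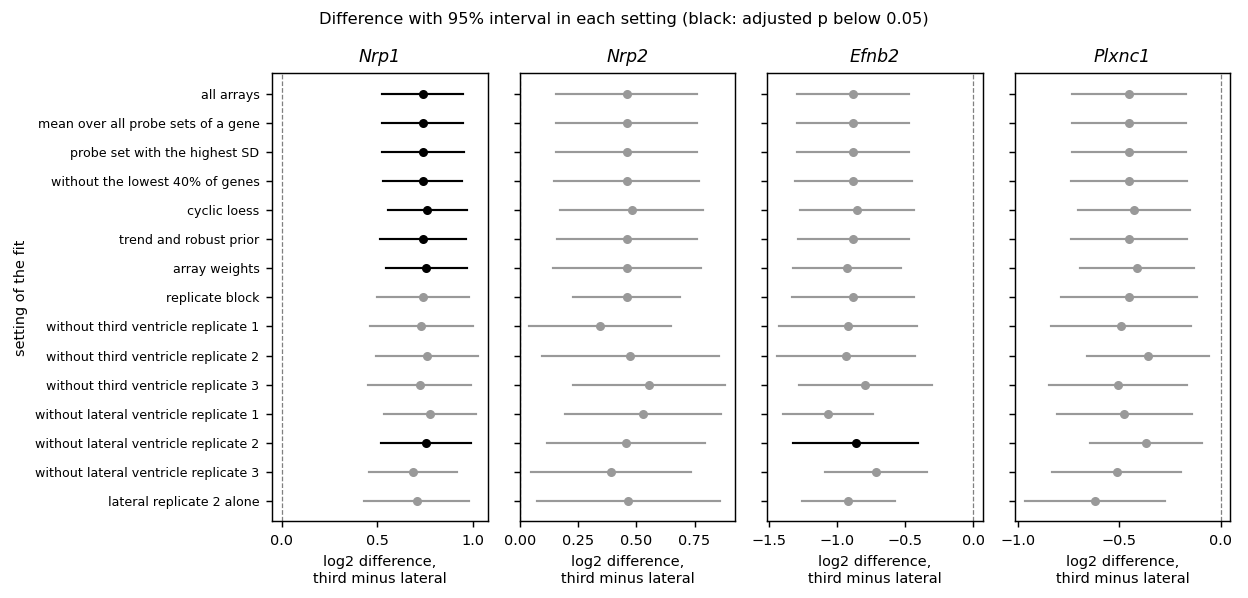
Log2 difference, the third minus the lateral ventricle (horizontal axis), of Nrp1, Nrp2, Efnb2 and Plxnc1 with its 95% interval in each setting of the fit (vertical axis), black where the adjusted p was below 0.05. Nrp1 stayed between 0.69 and 0.78 and passed in the fit of all arrays and in 7 of 14 alternatives, Efnb2 passed without lateral ventricle array 2 only, and Nrp2 and Plxnc1 in none.

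The 250 bases upstream of the annotated starts of Nrp1, Nrp2 and Efnb2 are shown because these are both neuropilins and the guidance gene with the largest lower difference. They are RefSeq sequences of build GRCm38.p6, 5′ to 3′ on the gene's strand, from chr8:128358823-128359072 (plus strand), chr1:62703067-62703316 (plus strand) and chr8:8661243-8661492 (minus strand), each ending at the base before the start. Capitals mark matches on either strand to the nuclear receptor half-site AGGTCA, the forkhead core TGTTTAC and the GC box GGGCGG.
Nrp1: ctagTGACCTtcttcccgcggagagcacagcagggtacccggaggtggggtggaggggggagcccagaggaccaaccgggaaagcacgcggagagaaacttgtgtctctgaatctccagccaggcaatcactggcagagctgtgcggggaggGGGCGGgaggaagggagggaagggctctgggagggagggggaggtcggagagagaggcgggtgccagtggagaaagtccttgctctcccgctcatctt
Nrp2: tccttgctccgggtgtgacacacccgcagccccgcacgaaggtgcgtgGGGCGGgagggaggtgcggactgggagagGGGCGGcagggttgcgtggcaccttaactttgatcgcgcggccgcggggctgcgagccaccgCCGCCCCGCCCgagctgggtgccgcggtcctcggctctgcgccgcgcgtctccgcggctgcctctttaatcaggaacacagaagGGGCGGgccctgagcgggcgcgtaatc
Efnb2: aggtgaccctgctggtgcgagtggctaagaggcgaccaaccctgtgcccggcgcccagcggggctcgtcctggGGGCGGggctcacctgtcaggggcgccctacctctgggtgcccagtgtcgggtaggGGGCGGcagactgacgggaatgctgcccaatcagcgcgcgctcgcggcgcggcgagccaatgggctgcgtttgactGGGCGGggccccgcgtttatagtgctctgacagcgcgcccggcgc
The Nrp1 window held 1 half-site, 246 bases before the start, and 1 GC box. The Nrp2 window held 5 GC boxes, 2 of them on the opposite strand and overlapping each other, and the Efnb2 window 3. The forkhead core was in none of these windows. Among all 32851 RefSeq windows of the same length, 14.0% held the half-site, 3.2% the forkhead core and 32.7% the GC box. Windows were found for 52 of the 61 guidance genes, 66 windows in all, of which 10, 0 and 50 held these motifs. The windows of Nrp1, Nrp2 and Efnb2 were 64.4%, 72.4% and 72.0% G and C bases, against a median of 52.4% over all windows. The shares with a GC box were not matched for base composition, so they show no trait of guidance genes. A match of letters is a description and shows no binding.

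Across the set, 1 of 61 guidance genes passed, against 0.231% of all genes (46 of 19938). In the direction of Nrp1, higher in the third ventricle, 0.145% of all genes passed, and as lower 0.0853%, against 0 guidance genes. Differences ran from -0.88 for Efnb2 to 0.74 for Nrp1. The median was -0.02, the same as over all genes at this rounding, and 30 differences were positive and 31 negative. The median size of the difference without its sign was 0.14 in guidance genes and 0.11 in all genes. Groups did not overlap in 15 guidance genes, or 24.6%, against 17.0% of all genes. Without overlap and higher in the third ventricle cultures were 7 of 61 (Nrp1, Nrp2, Epha7, Plxnb2, Efna4, Ntn1 and Ephb4), against 1549 of 19938 genes (7.77%). Without overlap and lower were 8 of 61 (Efnb2, Plxnc1, Sema5a, Unc5c, Epha5, Plxna1, Sema4a and Sema7a), against 1842 of 19938 (9.24%). An unadjusted p below 0.05 was reached by 12, or 19.7%, against 12.6% of all genes. With 3 arrays a group, an exact permutation test of a single gene cannot give a two-sided p below 0.1.

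**Figure D2:**
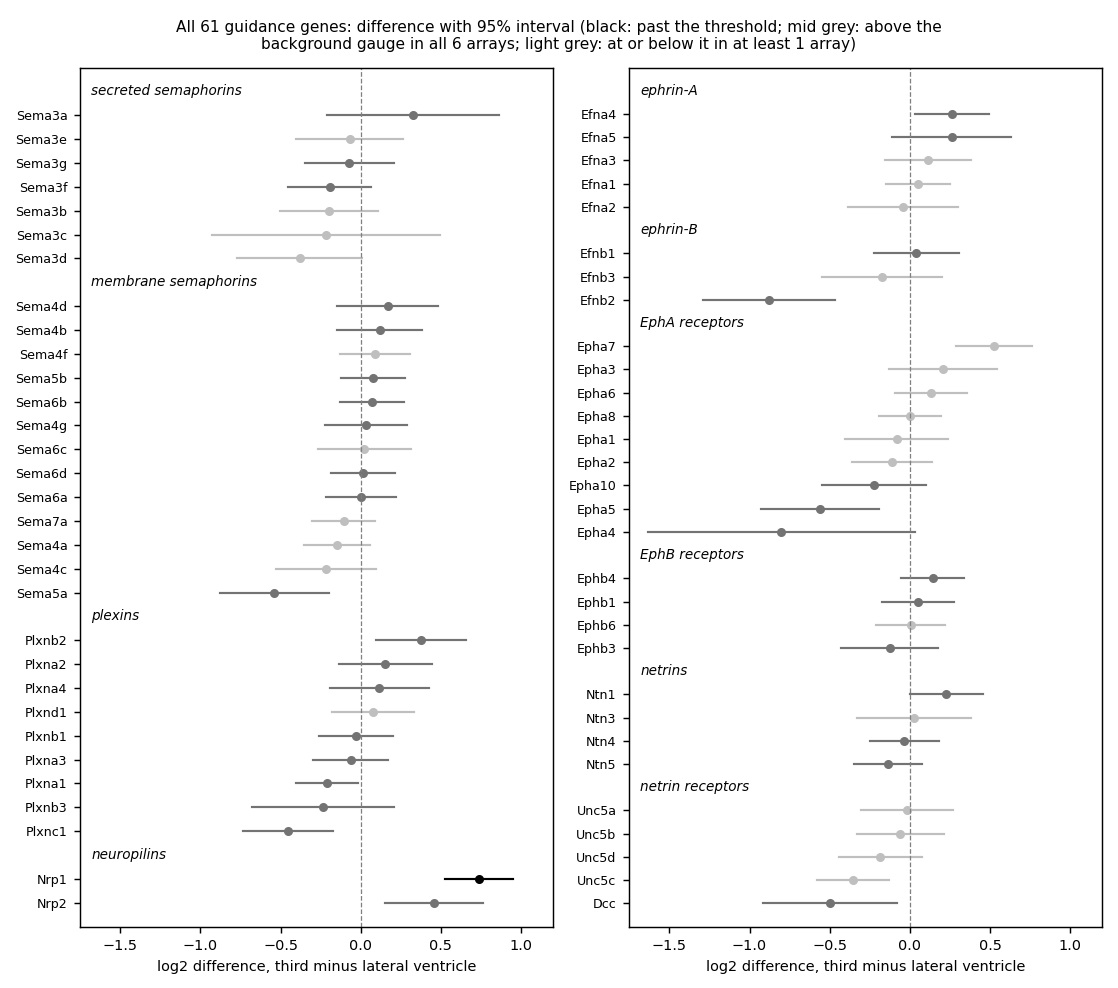
Log2 difference, the third minus the lateral ventricle (horizontal axis), with its 95% interval for each of the 61 guidance genes, listed by role. Nrp1 alone is black, for an adjusted p below 0.05, mid grey marks genes above the background gauge in all 6 arrays, and light grey the others. Most of the 61 intervals cross 0, and Efnb2 at -0.88 and Nrp1 at 0.74 mark the ends of the range.

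None of the 7 secreted semaphorins passed, and 6 had a negative difference. Sema3a, the classical repellent that signals through Nrp1, was measured at 8.62, 8.72 and 8.63 in the third ventricle arrays, against 8.21, 7.87 and 8.91 in the lateral ventricle arrays. The third ventricle arrays lay within the lateral range, and the difference of 0.33 carried a 95% interval from -0.21 to 0.86 (limma, adjusted p = 0.615). Leaving out array 2 of the lateral ventricle gave 0.10, and leaving out its array 3 gave 0.62. Sema3f, a ligand of Nrp2, differed by -0.19 (-0.46 to 0.07, adjusted p = 0.522), and by -0.10 without lateral ventricle array 2. Sema3d differed by -0.38 (adjusted p = 0.405) but lay at or below the gauge in all 6 arrays, as did Sema3e, so their levels cannot be compared. Sema3c, described here after its values were seen, was tight at 5.43, 5.49 and 5.46 in the third ventricle arrays and ran 6.22, 4.85 and 5.97 in lateral ventricle arrays 1, 2 and 3. Lateral ventricle array 2 was thus the lowest of the 6, at a value below its gauge of 5.15, and the other lateral arrays were the 2 highest. Over all arrays Sema3c differed by -0.22 (adjusted p = 0.821), without lateral ventricle array 2 by -0.63 (adjusted p = 0.0102), and without lateral ventricle array 1 by 0.05, with the sign turned. The remaining pair, Sema3b and Sema3g, had adjusted p-values of 0.586 and 0.852.

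Of the 13 membrane-bound semaphorins none passed either. Sema5a, a transmembrane semaphorin with thrombospondin repeats that binds Plxnb3, gave 5.36, 5.38 and 5.42 in the third ventricle arrays and 6.15, 5.59 and 6.04 in the lateral ventricle arrays. The third ventricle arrays were all lower and nearly equal, with lateral ventricle array 2 nearest to them. The difference was -0.54 (95% interval -0.88 to -0.20, limma adjusted p = 0.261), and it passed without lateral ventricle array 2 at -0.71 (adjusted p = 0.00345). Sema7a, the lipid-anchored semaphorin that binds Plxnc1 and beta1 integrins, lay at 4.70, 4.65 and 4.68 in the third ventricle arrays, against 4.74, 4.82 and 4.79 in the lateral ventricle arrays. All 6 values were below the gauge, so the difference of -0.11 (adjusted p = 0.656) gives no usable fold. Sema4a and Sema4c, both at or near the background, differed by -0.15 and -0.22 (adjusted p = 0.539 and 0.552), and Sema4c by -0.10 without array 3 of the third ventricle. Sema6d, a plexin-A ligand, was nearly the same in every array, at 9.41, 9.34 and 9.34 in the third and 9.29, 9.39 and 9.36 in lateral ventricle arrays, a difference of 0.01 (95% interval -0.19 to 0.22). The other 8 members of this class had differences between 0.00 and 0.17 and adjusted p-values from 0.671 to 0.997.

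The plexins, which carry the signal of the semaphorins into the cell, had 0 of 9 members past the threshold, 4 with a positive and 5 with a negative difference. Plxnc1, the receptor of Sema7a, was measured at 6.24, 5.98 and 6.27 in the third ventricle arrays, and at 6.57, 6.79 and 6.49 in the lateral ventricle arrays. Every value of the third ventricle lay below every lateral one, though by a gap smaller than the range within either group. The difference was -0.45 (SE 0.12, 95% interval -0.73 to -0.17), with an adjusted p of 0.260 in limma, and it passed in none of 14 alternatives. Plxnb2, a B plexin known to act in dividing neural progenitors, gave 7.14, 7.18 and 7.18 in the third against 6.56, 6.99 and 6.82 in lateral ventricle arrays. Its groups did not overlap, with lateral ventricle array 2 nearest the third ventricle arrays. The difference was 0.37 (adjusted p = 0.320) over all arrays and 0.47 (adjusted p = 0.0364) without lateral ventricle array 2.

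Plxna1, a partner of the neuropilins, had narrow groups, at 6.77, 6.73 and 6.74 in the third ventricle arrays and 6.92, 6.98 and 6.97 in the lateral ventricle arrays. They did not overlap, but the difference was only -0.21 (95% interval -0.41 to -0.02, adjusted p = 0.366 in limma). Plxnd1, the receptor of Sema3e, lay at 5.08, 5.07 and 5.11 in the third and 4.80, 5.10 and 5.13 in lateral ventricle arrays. Its values were at the level of the gauge, above it in 1 of 6 arrays, and the groups overlapped, with a difference of 0.08 (-0.18 to 0.33, adjusted p = 0.827) that turned to -0.03 without lateral ventricle array 1. The other 5 plexins, Plxna2, Plxna3, Plxna4, Plxnb1 and Plxnb3, had adjusted p-values between 0.662 and 0.934, and all 5 were above the gauge in 6 of 6 arrays.

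**Figure D3:**
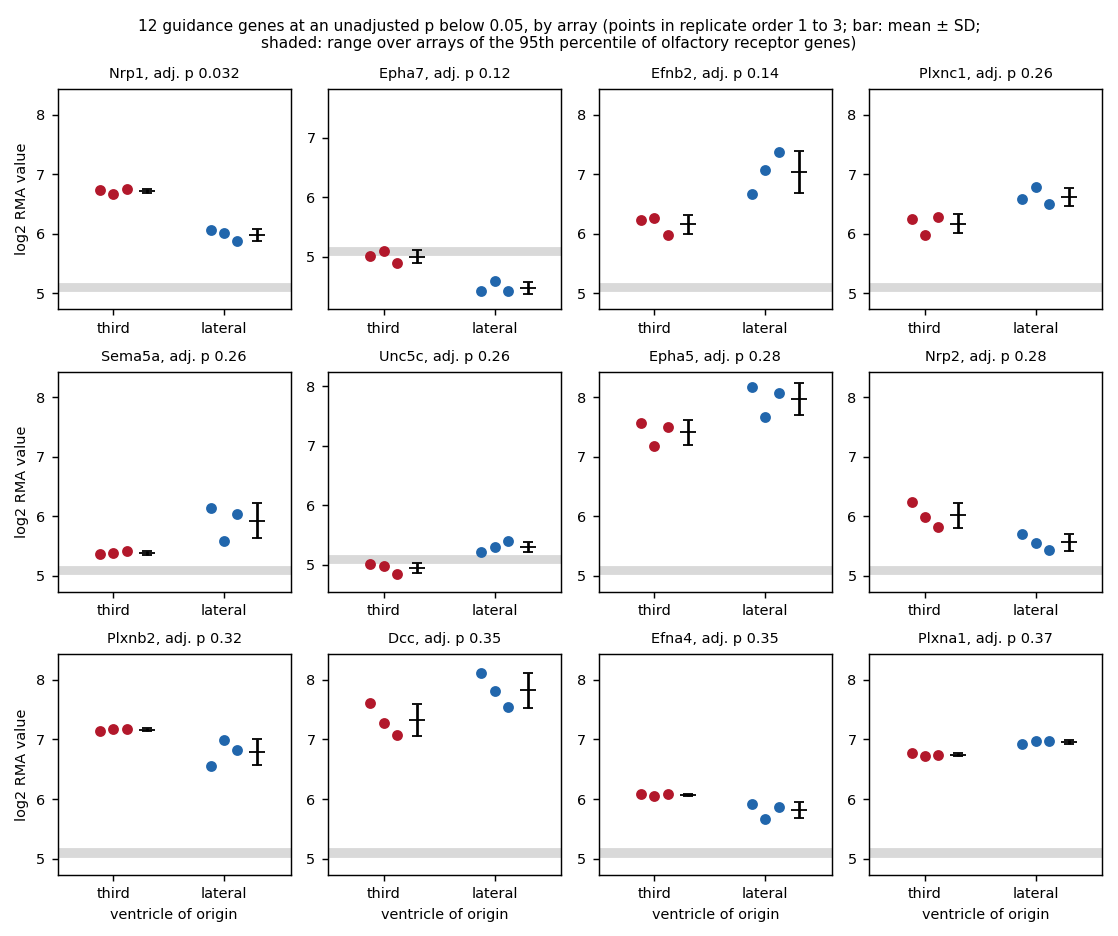
Log2 RMA value by array (vertical axis) of the 12 guidance genes with an unadjusted p below 0.05, the third ventricle at left in red and lateral ventricle at right in blue, with points in replicate order and mean ± SD beside them. The shaded band is the range of the background gauge over the arrays. Nrp1 has tight groups around 6.72 and 5.98, Efnb2 spreads from 6.66 to 7.37 in the lateral ventricle arrays, and the groups overlap in Dcc alone.

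Among the Eph ligands, Efnb2 had the largest difference of all 61 genes in size. This transmembrane ephrin, known for its roles in arteries and in the migration of neuroblasts beside the lateral ventricle, was measured at 6.23, 6.26 and 5.97 in the third ventricle arrays. In the lateral ventricle arrays it stood at 6.66, 7.07 and 7.37. The groups did not overlap, but the lateral arrays spread over 0.71. The difference was -0.88 (SE 0.18, 95% interval -1.29 to -0.47), or 1.84-fold lower in the third ventricle, with an adjusted p of 0.140 in limma. Of 14 alternatives it passed in 1, without lateral ventricle array 2 (-0.86, adjusted p = 0.0356), and lateral ventricle array 2 alone against the third ventricle gave -0.92 (adjusted p = 0.0655). Of the other B ephrins, Efnb1 differed by 0.04 (adjusted p = 0.920), and Efnb3 by -0.17 (adjusted p = 0.712) near the background. Of the 5 A ephrins none passed. Efna4 gave 6.09, 6.05 and 6.08 in the third against 5.91, 5.66 and 5.86 in lateral ventricle arrays, without overlap and with a difference of 0.26 (95% interval 0.03 to 0.49, adjusted p = 0.353). Efna5 was measured at 6.14, 5.90 and 5.90 in the third and 5.95, 5.85 and 5.37 in lateral ventricle arrays, and its groups overlapped. Its difference of 0.26 (-0.11 to 0.63, adjusted p = 0.554) was 0.08 without lateral ventricle array 3, the lowest of the 6. Efna1 and Efna3 lay at or below the gauge in all 6 arrays.

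The EphA receptors, which bind mainly A ephrins, included 9 genes, and 6 of them (Epha1, Epha2, Epha3, Epha6, Epha7 and Epha8) lay at or below the gauge in all 6 arrays. Epha7 had the lowest unadjusted p of the set after Nrp1. It was measured at 5.01, 5.11 and 4.89 in the third ventricle arrays, against 4.42, 4.59 and 4.42 in the lateral ventricle arrays. The groups lay apart, but as both were below the gauge the difference of 0.52 (adjusted p = 0.124 in limma) cannot be read as a fold. It passed without lateral ventricle array 2 (0.58, adjusted p = 0.0127). Epha5 was well above the gauge, at 7.56, 7.17 and 7.49 in the third and 8.18, 7.67 and 8.07 in lateral ventricle arrays. Lateral ventricle array 2 lay nearer the third ventricle mean than that of the other lateral arrays. The difference was -0.56 (95% interval -0.93 to -0.19, adjusted p = 0.280), and -0.71 (adjusted p = 0.0158) without that array.

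Epha4, which binds ephrins of both classes, Efnb2 included, varied widely within both groups. It gave 6.65, 6.18 and 5.69 in the third ventricle arrays and 7.80, 6.46 and 6.67 in the lateral ventricle arrays. The groups overlapped, with lateral ventricle array 1 far above the other 5, and the difference of -0.80 had a 95% interval from -1.63 to 0.03 (limma, adjusted p = 0.408). Without lateral ventricle array 1 it was -0.39. Epha10 gave 5.68, 5.63 and 5.60 in the third and 6.18, 5.66 and 5.76 in lateral ventricle arrays. Its difference of -0.23 (adjusted p = 0.552) was -0.07 without lateral ventricle array 1, the highest of the 6. A second, dimmer probe set gave 0.08, at values below the gauge in every array. Of the 4 EphB receptors none passed. Ephb4, a receptor of Efnb2, had narrow groups that did not overlap, at 5.41, 5.41 and 5.44 in the third and 5.23, 5.32 and 5.29 in lateral ventricle arrays, a difference of 0.14 (-0.06 to 0.34, adjusted p = 0.542). Ephb1 differed by 0.05 (adjusted p = 0.870), and Ephb3 and Ephb6 by -0.13 and 0.01.

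Netrin receptors had a negative difference in 5 of 5 members and a median of -0.18, with 0 past the threshold. Over all genes, 10886 of 19938 differences were negative. Dcc, the attractive netrin receptor, was measured at 7.62, 7.28 and 7.08 in the third ventricle arrays and at 8.13, 7.81 and 7.54 in the lateral ventricle arrays. One value of the third ventricle lay above the lowest lateral one, and the difference was -0.50 (95% interval -0.92 to -0.08, adjusted p = 0.349 in limma). Unc5c, a repulsive netrin receptor, gave 5.01, 4.99 and 4.85 in the third against 5.22, 5.29 and 5.40 in lateral ventricle arrays. No array of the third ventricle exceeded the gauge and all 3 lateral ones did. The lateral mean stood 1.15-fold above the mean gauge of the third ventricle arrays, a value that leaves out the spread between arrays. The difference was -0.35 (95% interval -0.58 to -0.13, adjusted p = 0.263 in limma). Unc5d differed by -0.18 (adjusted p = 0.543), by -0.12 without lateral ventricle array 2, and by -0.46 on a second, dimmer probe set that lay partly below the gauge. The other Unc5 genes, Unc5a and Unc5b, differed by -0.02 and -0.06, and neither kept its sign. Unc5a turned to 0.07 without lateral ventricle array 2, and Unc5b to 0.01 without lateral ventricle array 3. Unc5b also lay at or below the gauge in all 6 arrays.

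The 4 netrins showed no call. Ntn1, the chief ligand of Dcc, was measured at 5.95, 5.89 and 5.91 in the third ventricle arrays, against 5.81, 5.54 and 5.72 in the lateral ventricle arrays. Its groups did not overlap, and the difference was 0.23 (95% interval -0.0024 to 0.46, adjusted p = 0.396 in limma). Ntn4, a netrin of basement membranes, differed by -0.04 (-0.25 to 0.18, adjusted p = 0.910). Ntn3 and Ntn5 had adjusted p-values of 0.968 and 0.583.

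**Figure D4:**
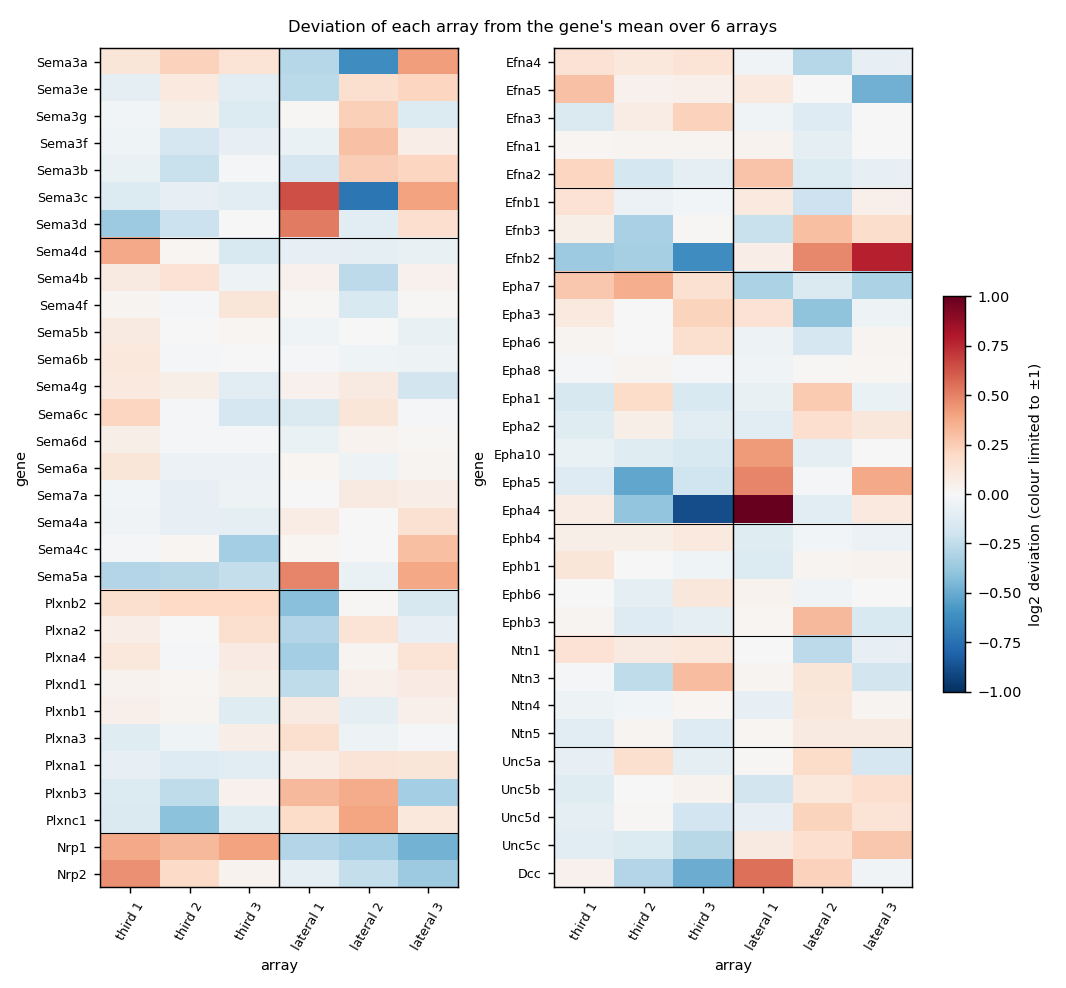
Deviation of each array (horizontal axis) from the gene's mean over 6 arrays, on the log2 scale, for the 61 guidance genes (vertical axis), blocked by role and ordered by difference within a role, with red above and blue below the mean and colour limited to ±1. Nrp1 and Nrp2 lie above the mean in all arrays of the third and below it in all arrays of the lateral ventricle. For Nrp2 the deviation is faint in array 3 of the third ventricle. Sema3c shows lateral ventricle array 2 opposite to arrays 1 and 3.

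Spread within a group was wider in the lateral ventricle cultures. The range over the 3 arrays was larger in the lateral than in the third ventricle group for 47 of 61 guidance genes, with a median range of 0.18 in the third and 0.30 in lateral ventricle arrays. Over all genes these medians were 0.20 in the third and 0.29 in lateral ventricle arrays, and the lateral range was the larger in 13277 of 19938. A range above 0.5 occurred for 4 guidance genes (6.56%) in the third and 13 (21.3%) in lateral ventricle arrays, close to the 4.77% and 19.8% of all genes. Epha4 and Sema3c had lateral ranges of 1.34 and 1.37.

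Without lateral ventricle array 2, 7 of 61 guidance genes passed, or 11.5%, against 8.25% of all genes in that fit. Higher in the third ventricle were 3 of 61 (Nrp1, Epha7 and Plxnb2), against 871 of 19938 genes (4.37%). Lower were 4 of 61 (Efnb2, Epha5, Sema5a and Sema3c), against 773 of 19938 (3.88%). For Nrp1, Efnb2 and Epha7 the left-out array lay nearer the lateral mean of the other arrays. For Epha5, Plxnb2, Sema5a and Sema3c it lay nearer the third ventricle mean, though for Sema3c it lay below every array of the third ventricle. All 7 calls contrast only arrays 1 and 3 of the lateral ventricle with those of the third.

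Markers of oligodendrocyte progenitors did not move as one. All 10 measured lay above the gauge in all 6 arrays, 7 with a negative and 3 with a positive difference, and Pdgfra and Lhfpl3 passed as lower in the third ventricle cultures, by -1.79 and -1.22 (limma, adjusted p = 0.00707 and 0.00746). Of the lineage transcription factors, Olig1, Olig2 and Nkx2-2 differed by 0.17, 0.09 and 0.13 and did not pass. Sox10, another such factor, went the other way, at -0.74 without overlap of the groups (limma, adjusted p = 0.118). Gpr17 differed by -1.35 (limma, adjusted p = 0.133). The list's summed linear signal was 1413 to 1471 in the third and 1998 to 2214 in lateral ventricle arrays, without overlap. Neuron markers summed to 2591 to 2933 in the third and 2525 to 2632 in lateral ventricle arrays, with Stmn2 and Syt1 at or below the gauge in all arrays. The highest signals in that sum are those of Map2 and Gap43, whose differences were 0.24 and 0.60, while 7 of the 10 neuron markers had a negative difference. The immature neuron marker Dcx differed by -1.63 and the neuronal tubulin Tubb3 by -0.60, and none of the 10 passed (limma, lowest adjusted p = 0.136). Cell cycle markers summed to 10737 to 10987 in the third and 3404 to 11043 in lateral ventricle arrays. The part of these lists in the guidance gene values was not tested. Microglia and blood markers had 5 of 8 genes at or below the gauge in all arrays (Aif1, C1qb, Csf1r, Itgam and Ptprc), with sums of 188 to 221 in the third and 210 to 214 in lateral ventricle arrays. Astrocyte markers summed to 3034 to 3565 in the third and 2031 to 5113 in lateral ventricle arrays. Of these 8 genes, 7 lay above the gauge in all 6 arrays, and Gfap lay at or below it throughout. Meningeal and fibroblast markers summed to 272 to 284 in the third and 281 to 298 in lateral ventricle arrays. Of these 8 genes, 4 lay above the gauge in all 6 arrays and 3 at or below it in all 6. Choroid plexus and ependymal markers summed to 383 to 410 in the third and 357 to 403 in lateral ventricle arrays. There 4 of 8, namely Otx2, Ccdc39, Folr1 and Foxj1, lay above the gauge in all 6 arrays. The other 4, Ttr among them, lay at or below it in all 6.

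Downstream of the receptors, 75 effector genes were measured from 3 textbook lists, and 0 passed over all 6 arrays in limma. At an unadjusted p below 0.05 there were 13 (17.3%, against 12.6% of all genes), 6 with a positive and 7 with a negative difference. Groups did not overlap in 20, or 26.7%, against 17.0% of all genes. The median difference was -0.06, with 33 differences positive and 42 negative. Named for each list are the 2 genes with the highest mean, chosen by level and not by difference, and all of these were positive. For semaphorins and plexins, 28 genes had a median of -0.07, with the integrin subunit Itgb1 at 0.23 and the kinase Fyn at 0.13 (adjusted p = 0.409 and 0.652). For Ephs and ephrins, 25 genes had a median of 0.05, with the phosphatase Acp1 at 0.15 and the Ras regulator Rasa1 at 0.10. For netrins, 22 genes had a median of -0.08, with the GTPases Rac1 at 0.20 and Cdc42 at 0.21 (adjusted p = 0.383 and 0.497). Without lateral ventricle array 2, 6 of the 75 passed, or 8%, a share like the 8.25% of all genes in that fit. They were Mical2, higher in the third ventricle, and Grb10, Dscam, Dpysl3, Neo1 and Met, lower there. Met lay at or below the gauge in all 6 arrays.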

How the data were processed

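RNA of 6 neural stem cell cultures was amplified with the NuGEN WT-Ovation Pico kit (500 pg to 50 ng of input) and hybridized to Affymetrix arrays, per the labels' protocols. The deposited file holds log2 values that the authors obtained with RMA. RMA corrects background, equalizes the arrays and summarizes probes, and per the submitters' processing notes it was run in Affymetrix Expression Console 1.1. Of 35556 probe sets, 21789 had 1 gene symbol in the platform annotation, 1621 several and 12146 none. The first of these gave 19938 genes, with no filter on low values.

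The third ventricle was compared with the lateral ventricle in limma 3.58.1 (lmFit and eBayes, R 4.3.3). Its variance prior was worth 4.04 degrees of freedom, with SD 0.14. P-values were adjusted by Benjamini-Hochberg over the 19938 genes, and 0.05 was the threshold. Precision is limited by the number of arrays. The steps were tested on simulated data with independent noise and no array that resembled the other group. There 28.4% of 1.5-fold, 83.6% of 2-fold and 100% of 4-fold changes passed. A gene that did not pass may therefore still differ. Genes with full values were chosen by a rule: every passing member, Plxnc1, Plxnd1 and Sema7a, further members by p up to 24, and the member of each of 10 role lists with the highest mean. The remaining members are named only to complete a role, or after their values were seen. Members, lists and the background gauge were chosen with earlier results of these data known. Alternatives were other probe sets per gene, dropping the dimmest 40% of genes, cyclic loess, a trended robust prior, array weights, a replicate block and leaving out single arrays. The fit with lateral ventricle array 2 alone was chosen after seeing the data.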

Additional observations from a re-analysis of the deposited data

How the results depend on the processing

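Guidance genes past the threshold numbered 1 over all arrays and under 6 alternatives of probe set, filter, normalization, prior and array weights. They numbered 0 with a replicate block (Nrp1 adjusted p = 0.0698) and 0 with lateral ventricle array 2 alone, and 0 to 7 when 1 array was left out, the 7 without lateral ventricle array 2. Arrays with the same number had correlated deviations of 0.24, 0.11 and 0.07, which does not show that the numbers pair them, so the block is an alternative only. Over all genes the block gave 57 calls, array weights 158, and leaving out 1 array 4 to 1644, against 46 (29 higher, 17 lower). The median difference of the guidance genes moved to 0.0014 without the lowest 40% of genes, where 39 of the 61 were kept, and ran from -0.0187 to 0.0086 when 1 array was left out. Effector calls numbered 1 with array weights (Grb10) and 0 to 6 when 1 array was left out. Over all alternatives the sign turned at least once for 23 of the 61 genes, the largest of these differences in size being the -0.22 of Sema3c (0.05 without lateral ventricle array 1). Among the 28 genes chosen by rule it turned for 4. When 1 array was left out, Plxnd1 ran from -0.0301 to 0.136, Sema6d from -0.0153 to 0.0365, Ephb1 from -0.0031 to 0.0839 and Ntn4 from -0.0863 to 0.0124. With lateral ventricle array 2 alone, Plxnd1 was -0.0161 and Sema6d -0.0285, and with cyclic loess Sema6d was -0.0025. Where a call was lost, the cause was not tested. Dim signal limits 26 of the 61 genes.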

Other observations

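Probe sets of 1 gene did not always give 1 answer. Of the 61 guidance genes, 5 had 2 single-gene probe sets. Sema4d, whose membrane-bound product binds Plxnb1, differed by 0.17 on the probe set used and by -0.08 on the dimmer one, and its value of 5.99 in array 1 of the third ventricle stood above the other 5 arrays (5.46 to 5.64). Epha10 had opposite signs, at -0.23 and 0.08, but its dimmer probe set read 4.81 to 4.99, below the gauge in every array. Its sign there cannot be compared. Unc5d had the same sign on both, at -0.18 and -0.46, and Ephb1 too, at 0.05 and 0.09. The 2 probe sets of Sema6b held the same 6 values, so they are no separate measurements. These genes were chosen for having a second probe set, and none of their differences passed.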
